A study of Homo sapiens with 6 samples.

Results

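Wnt feedback and direct target genes were followed as a set of 10 genes, AXIN2, NKD1, NKD2, ZNRF3, RNF43, DKK1, LEF1, TCF7, SP5 and BMP4, found by symbol among the 17280 genes of the deposited table. All 10 were listed there, and each NCBI identifier carried the same symbol in RefSeq. The libraries came from CAL-27, an established line of human tongue squamous cell carcinoma, grown as floating spheres. One group held 3 libraries titled LF3, after a compound known to keep beta-catenin from binding TCF4, with 24 h of exposure in the series design; the treatment field of these same libraries names elesclomol with copper instead, so the labels leave the agent unsettled. The other group held 3 libraries titled CON, whose treatment field reads normal control. A cell line stands for 1 tumour, and no label says whether replicates were separate cultures, and the spread behind each p-value may therefore be technical.

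When a Wnt ligand binds Frizzled and LRP5 or LRP6 at the cell surface, the complex that destroys beta-catenin is held back, and beta-catenin enters the nucleus and activates genes bound by TCF and LEF proteins. Several of the genes switched on in this way encode brakes on the same pathway, so their RNA is often used as a readout of it. The brakes act at different levels. DKK1 is secreted and keeps LRP5 and LRP6 from the ligand, ZNRF3 and RNF43 are ubiquitin ligases that remove Frizzled from the surface, NKD1 and NKD2 bind Dishevelled in the cytoplasm, and AXIN2 is a scaffold of the destruction complex. LEF1 and TCF7 encode partners of beta-catenin on DNA, SP5 a transcription factor of the Sp family and BMP4 a secreted ligand of another pathway.

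Promoter windows from RefSeq (GRCh38.p14; 250 bases before to 50 after a gene's start) were found for 7 of the 10 genes, and not for AXIN2, NKD1 and ZNRF3. The TCF and LEF core letters CTTTGAT and CTTTGAA, which do not overlap each other in these windows, were searched on both strands. They were present in the windows of 2 of the 7 genes, SP5 and DKK1, and not in those of NKD2, RNF43, LEF1, TCF7 or BMP4. Of 13784 genes of the table with a window, 2.33% held CTTTGAT, 4.51% held CTTTGAA and 6.62% held either. SP5 held 3 matches, which began 148, 109 and 84 bases before the start, and DKK1 held 1, which began 95 bases before it. The windows of DKK1 (chr10:52314031-52314330, plus strand), SP5 (chr2:170715087-170715386, plus strand) and NKD2 (chr5:1008552-1008851, plus strand) are shown because DKK1 had the highest and NKD2 the lowest log2 fold change of the set and SP5 held the most matches; capitals mark the matches, and those on the opposite strand read TTCAAAG. A match is a run of letters only, and windows without one say nothing about sites elsewhere.
DKK1: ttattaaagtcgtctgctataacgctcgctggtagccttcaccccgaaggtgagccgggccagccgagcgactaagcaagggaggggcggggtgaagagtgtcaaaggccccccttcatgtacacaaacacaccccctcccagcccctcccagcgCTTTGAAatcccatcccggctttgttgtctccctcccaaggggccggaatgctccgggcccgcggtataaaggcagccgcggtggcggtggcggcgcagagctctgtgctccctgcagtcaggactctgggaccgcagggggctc
SP5: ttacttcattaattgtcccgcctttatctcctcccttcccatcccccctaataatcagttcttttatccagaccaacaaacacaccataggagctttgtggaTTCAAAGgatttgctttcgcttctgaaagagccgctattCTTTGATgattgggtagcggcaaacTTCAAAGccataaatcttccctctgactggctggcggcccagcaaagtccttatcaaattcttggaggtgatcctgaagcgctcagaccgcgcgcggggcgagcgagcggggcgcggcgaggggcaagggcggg
NKD2: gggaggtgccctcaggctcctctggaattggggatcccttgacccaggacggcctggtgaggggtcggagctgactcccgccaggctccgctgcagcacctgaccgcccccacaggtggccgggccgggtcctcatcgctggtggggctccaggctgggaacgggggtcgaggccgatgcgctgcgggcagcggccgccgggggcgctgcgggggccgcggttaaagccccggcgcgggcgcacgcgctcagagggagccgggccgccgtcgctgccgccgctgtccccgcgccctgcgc

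Levels are given in TPM, each gene's length-corrected share of a library scaled to a fixed total, which keeps no sequencing depth, so no counting interval was computed. The test took the 12195 genes that averaged 1 TPM or more across the 6 libraries. A positive log2 fold change means higher in LF3 libraries; it is taken on log2(TPM + 1), so that changes of weakly expressed genes come out too small, and is given ± its limma standard error. A gene was called at a limma Benjamini-Hochberg adjusted p under 0.05. By this rule 85.5% of all tested genes were called, 53.2% higher and 32.3% lower, so a call is common in these libraries and the sizes carry more than the counts. Over all tested genes the median change was 0.24 on the log2 scale. Scaling by median ratios brought it to -0.0055 and the calls to 85.3% in either direction, 42.6% higher and 42.7% lower. Quantile normalization gave 85.4%, with 43.9% higher and 41.4% lower. For the 7 tested genes of the set, the value relative to the median of 0.24 is therefore also given.

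The Wnt feedback and direct target genes did not move as one. In the LF3 libraries DKK1, ZNRF3, BMP4 and TCF7 were higher and NKD2, LEF1 and RNF43 lower than in CON libraries, while the 3 least expressed genes, AXIN2, NKD1 and SP5, had overlapping values. Of the 10 genes, 7 passed the filter of 1 TPM, 4 were called higher and 3 lower, against 85.5% of all tested genes called. After median-ratio scaling 3 were higher and 3 lower, beside 42.6% and 42.7% of all tested genes. After quantile normalization 4 were higher and 2 lower, beside 43.9% and 41.4%. LF3 and CON values were apart in all 7 tested genes, against 86.2% of all tested genes, 53.5% with LF3 above and 32.7% with LF3 below. The summed TPM of the 10 genes ran from 181 to 192 in LF3 libraries and from 41.1 to 42.4 in CON libraries. DKK1 alone held 86.5 ± 0.613% of that sum in LF3 libraries and 43.7 ± 4.53% in CON libraries (SD, n = 3 each). The other 9 genes summed to 25.4 ± 1.06 TPM in LF3 libraries and 23.5 ± 1.70 TPM in CON libraries, ranges that overlap.

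**Figure D1:**
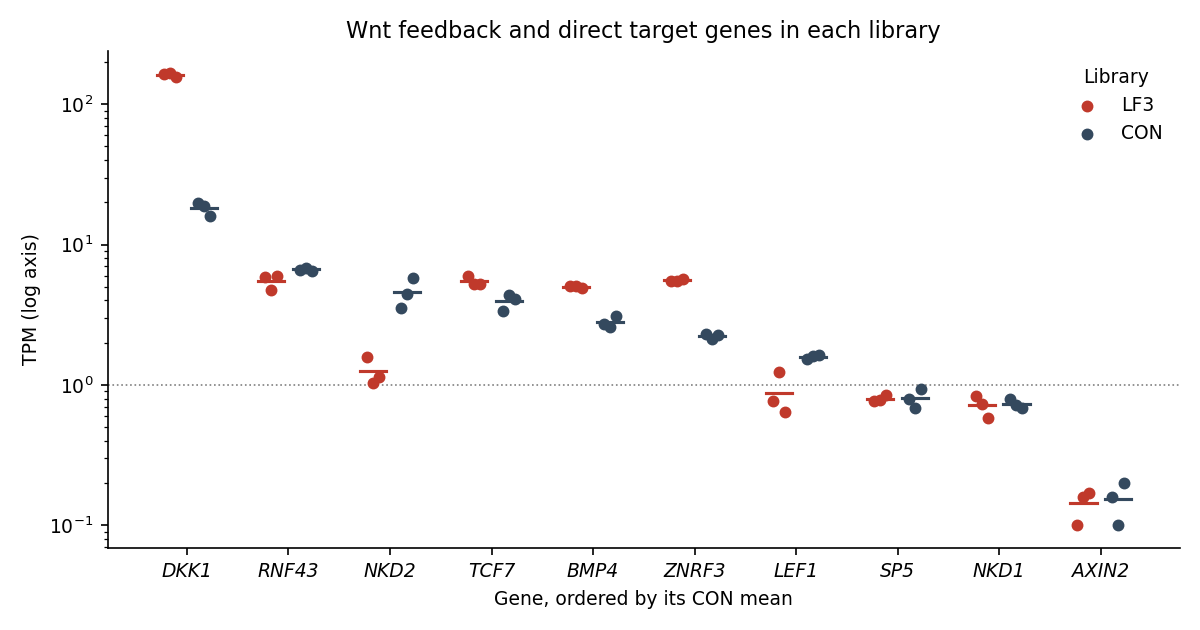
TPM of the 10 Wnt feedback and direct target genes on a log axis; each point is 1 library, the short bar is the mean of 3, and the dotted line marks 1 TPM. DKK1 lies at 155.6 to 166.0 TPM in LF3 libraries and at 15.9 to 19.8 TPM in CON libraries, while AXIN2, NKD1 and SP5 lie below 1 TPM in all 6.

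DKK1, the secreted antagonist, was the most abundant of the set in both groups and the one with the largest difference. It stood at 165, 166.0 and 155.6 TPM in LF3 libraries and at 19.8, 18.9 and 15.9 TPM in CON libraries. The lowest LF3 value lay far above the highest CON value. Its mean was 162 ± 5.75 TPM in LF3 libraries and 18.2 ± 2.04 TPM in CON libraries (SD, n = 3 each), a ratio of 8.90. The log2 fold change was 3.09 ± 0.072 (limma adjusted p = 2.85e-11), which is 2.85 above the median of all tested genes. It remained at 2.82 after median-ratio scaling and 2.79 after quantile normalization. Of all tested genes, 99.7% had a lower log2 fold change than DKK1. Its mean exceeded that of 94.2% of the genes in the table in LF3 libraries and of 67.4% in CON libraries. An antisense RNA, PRKG1-AS1, overlaps exons of DKK1 in GENCODE 29; whether counting used strand is not given, and its part in the value was not tested.

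Of the surface proteins that DKK1 works with, LRP5 and KREMEN2 were called higher in LF3 libraries as deposited, while LRP6 and KREMEN1 were not called. LRP5, one of its co-receptor targets, stood at 44.6 ± 3.63 TPM in LF3 libraries and 19.8 ± 1.20 TPM in CON libraries, a log2 fold change of 1.13 ± 0.068 (limma adjusted p = 4.05e-08) that stayed called after both scalings. The other co-receptor gene, LRP6, had 11.5 ± 0.493 TPM in LF3 libraries and 11.2 ± 1.12 TPM in CON libraries, with a log2 fold change of 0.040 ± 0.081 (limma adjusted p = 0.649) that was -0.21 and called lower after median-ratio scaling (adjusted p = 0.0220) and -0.25 after quantile normalization (adjusted p = 0.0114). KREMEN1, a receptor of DKK1, had 19.1 ± 0.2 TPM in LF3 libraries and 19.5 ± 0.215 TPM in CON libraries (log2 fold change -0.026 ± 0.053, limma adjusted p = 0.654), and was called lower after both scalings, at -0.29 and -0.33. The other Kremen receptor, KREMEN2, had 6.44 ± 1.68 TPM in LF3 libraries and 4.46 ± 0.330 TPM in CON libraries (0.42 ± 0.14, limma adjusted p = 0.0159). Its call held after quantile normalization (0.33) and was lost after median-ratio scaling (0.19, adjusted p = 0.206), with no filter (adjusted p = 0.0507), when CON replicate 2 was left out (0.0508) and when LF3 replicate 1 was (0.0561). DKK3, a relative of DKK1, went in the other direction, with 8.21 ± 0.165 TPM in LF3 libraries and 22.3 ± 0.475 TPM in CON libraries and a log2 fold change of -1.34 ± 0.059 (limma adjusted p = 2.95e-09). Of 12 other genes listed here as secreted Wnt antagonists, 9 were in the table, and DKK3 was the 1 that passed the filter. Whether DKK3 acts on Wnt signalling in these cells was not tested. The other 8, SFRP1, SFRP5, FRZB, WIF1, NOTUM, SOST, SOSTDC1 and DKK2, averaged under 1 TPM over the 6 libraries. Of these 8, the fit with no filter called SFRP1, FRZB and NOTUM lower (limma adjusted p = 0.00273, 0.000373 and 0.00239). That fit called 67.7% of all genes, and 53.6% of genes with a mean of 0.1 to 1 TPM. LRP6, KREMEN1 and KREMEN2 were picked out after their values were seen.

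ZNRF3 and RNF43, a pair of related ligases with the same known substrates, went opposite ways. ZNRF3 stood at 5.50, 5.46 and 5.69 TPM in LF3 libraries and at 2.32, 2.12 and 2.28 TPM in CON libraries. All LF3 values lay above all CON values and both groups were tight, with a ratio of means of 2.48. The log2 fold change was 1.02 ± 0.081 (limma adjusted p = 4.32e-07), 0.77 above the median of all tested genes, 0.80 after median-ratio scaling and 1.02 after quantile normalization. RNF43 stood at 5.92, 4.74 and 5.96 TPM in LF3 libraries and at 6.62, 6.83 and 6.49 TPM in CON libraries. The groups did not overlap, but LF3 replicate 2 lay well below the other LF3 libraries. The log2 fold change of RNF43 was -0.23 ± 0.091 (limma adjusted p = 0.0351), -0.47 relative to the median of all tested genes, and without LF3 replicate 2 it was -0.14 (adjusted p = 0.155). The call also went when CON replicate 1 was left out (adjusted p = 0.0720), or CON replicate 2 (0.0908), or CON replicate 3 (0.0567), and in the fit with no filter (adjusted p = 0.0654), where 67.7% of all genes were called. It held after both scalings, at -0.47 and -0.37. RNF43 shares annotated exon sequence with SUPT4H1 on the same strand, a gene at 87.5 ± 5.91 TPM in LF3 libraries and 52.8 ± 1.34 TPM in CON libraries, and how reads of the overlap were counted is not given; its part in the RNF43 value was not tested.

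The ratio between these ligases within a library does not change when all TPM of that library are multiplied by a factor. The ratio of ZNRF3 to RNF43 was 0.929, 1.15 and 0.955 in LF3 libraries and 0.350, 0.310 and 0.351 in CON libraries. The ligases were thus near parity in LF3 libraries, while RNF43 was the more abundant in each CON library. The mean log2 ratio differed by 1.58 (exact permutation test, two-sided, p = 0.1, the smallest that 3 against 3 can give; 0.1 also when adjusted over the 3 ratios computed). The ratios were chosen after the values of the genes were seen. ZNRF3 and TCF7 were higher and RNF43 and LEF1 lower in LF3 libraries without overlap. The ratios of ZNRF3 to RNF43 and of TCF7 to LEF1 therefore had to separate the groups, and their permutation p adds nothing to the values.

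Genes of Wnt receptors and the R-spondin system include the Frizzled genes, on whose products these ligases act. As a list they were called higher at a share not far above that of all tested genes. Among Frizzled, LRP, KREMEN, R-spondin and LGR genes, 12 of 21 passed the filter, 8 were called higher and 1 lower, beside 53.2% and 32.3% of all tested genes. Median-ratio scaling gave 6 and 3, beside 42.6% and 42.7% of all genes, and quantile normalization 7 and 3, beside 43.9% and 41.4%. The list had a median log2 fold change of 0.61 beside 0.24 for all tested genes. FZD6, a Frizzled receptor, had 64.5 ± 4.33 TPM in LF3 libraries and 30.9 ± 2.65 TPM in CON libraries, a log2 fold change of 1.04 ± 0.070 (limma adjusted p = 9.78e-08). FZD2 had a log2 fold change of 0.79 ± 0.071 (limma adjusted p = 1.16e-06). LGR4, a receptor for R-spondins, which shield Frizzled from ZNRF3 and RNF43, had 47.1 ± 3.08 TPM in LF3 libraries and 26.8 ± 1.70 TPM in CON libraries, a log2 fold change of 0.79 ± 0.064 (limma adjusted p = 4.96e-07). The 1 gene called lower was FZD7, at 7.11 ± 0.784 TPM in LF3 libraries and 9.41 ± 0.590 TPM in CON libraries. The R-spondin genes RSPO1, RSPO2, RSPO3 and RSPO4 all averaged under 1 TPM over the 6 libraries.

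NKD1 and NKD2, the cytoplasmic inhibitors that bind Dishevelled, also differed from each other. NKD2 stood at 1.59, 1.04 and 1.13 TPM in LF3 libraries and at 3.52, 4.47 and 5.80 TPM in CON libraries. All LF3 values lay below the lowest CON value, and the CON libraries were widely spread. Its mean was 1.25 ± 0.295 TPM in LF3 libraries and 4.60 ± 1.15 TPM in CON libraries, a ratio of 0.273. The log2 fold change was -1.30 ± 0.15 (limma adjusted p = 1.03e-05), -1.54 relative to the median of all tested genes, -1.49 after median-ratio scaling and -1.23 after quantile normalization; 7.10% of tested genes had a lower one. NKD1 stood at 0.840, 0.730 and 0.580 TPM in LF3 libraries and at 0.790, 0.720 and 0.680 TPM in CON libraries, with the CON values inside the range of the LF3 values. The ratio of NKD2 to NKD1 was 1.89, 1.42 and 1.95 in LF3 libraries and 4.46, 6.21 and 8.53 in CON libraries. NKD2 was thus the more abundant of the pair in all 6 libraries, by less in LF3 libraries (mean log2 ratio lower by 1.83; exact permutation test, two-sided, p = 0.1, the smallest possible). With NKD2 this far apart between groups and NKD1 this even, the ratio had to separate the groups. Its permutation p therefore adds nothing to the values.

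AXIN2 and SP5, which many cell types raise when beta-catenin is active, were low in both groups, as was NKD1. AXIN2 stood at 0.1, 0.16 and 0.17 TPM in LF3 libraries and at 0.16, 0.1 and 0.2 TPM in CON libraries. SP5 stood at 0.770, 0.780 and 0.850 TPM in LF3 libraries and at 0.800, 0.680 and 0.940 TPM in CON libraries. Values of the groups overlapped in all 3 genes; among all 2380 genes with a mean of 0.1 to 1 TPM they did not overlap in 55.1%. In a fit with no filter, limma adjusted p was 0.831 for AXIN2, 0.877 for NKD1 and 0.973 for SP5, while 53.6% of the genes in that range were called. A further fit used no filter and a pseudocount of 0.1, an alternative chosen after seeing the data in which 67.8% of all genes were called. Its 95% intervals were for the ratio of LF3 to CON of TPM + 0.1. They ran from 0.663 to 1.41 for AXIN2, 0.723 to 1.32 for NKD1 and 0.752 to 1.33 for SP5. The added 0.1 draws this ratio toward 1, most for AXIN2, whose own TPM is of like size. A difference within those bounds was not detectable, and in TPM itself a larger one could be missed, above all for AXIN2. A table written to 2 decimals also leaves AXIN2 little resolution. The CON mean of AXIN2 exceeded that of 17.6% of the genes in the table, and those of NKD1 and SP5 exceeded 27.3% and 27.9%. AXIN2 shares annotated exon sequence with AC004805.1 on the same strand, and the antisense RNA AC007608.1 overlaps exons of NKD1. How reads of these overlaps were counted is not given, and their part in the low values was not tested.

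**Figure D2:**
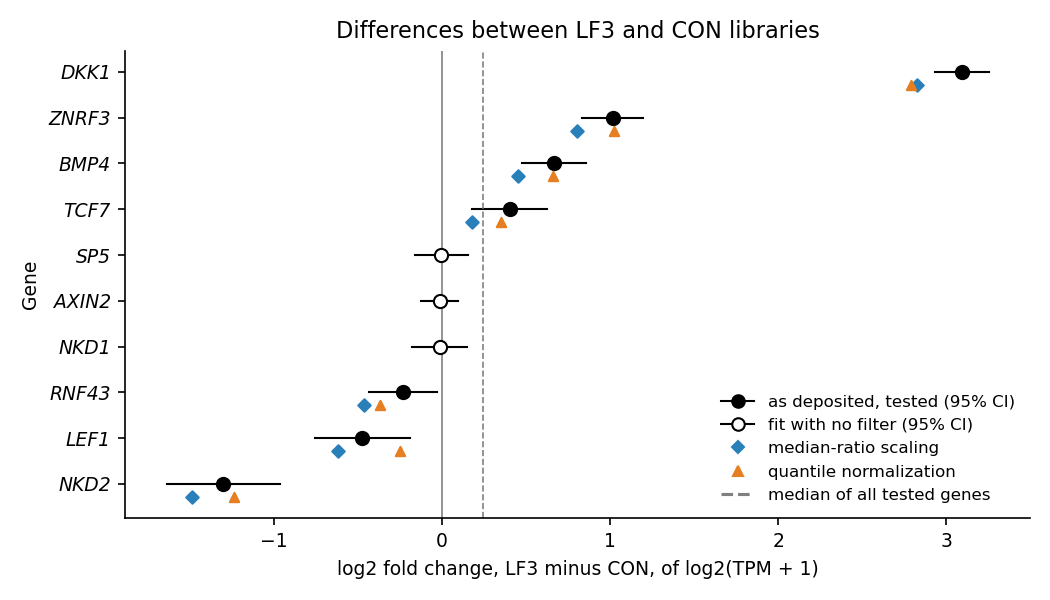
Log2 fold changes, LF3 minus CON, of log2(TPM + 1), with 95% confidence intervals; filled circles are the 7 tested genes, open circles the 3 genes below the filter from the fit with no filter, diamonds median-ratio scaling and triangles quantile normalization. DKK1 stands at 3.09 and NKD2 at -1.30, the intervals of AXIN2, NKD1 and SP5 include 0, and the dashed line is the median of all tested genes at 0.24.

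The factors that carry beta-catenin onto DNA were also split. TCF7 stood at 5.99, 5.27 and 5.27 TPM in LF3 libraries and at 3.34, 4.38 and 4.09 TPM in CON libraries. The groups were apart, with a gap smaller than the range within CON. Its log2 fold change was 0.40 ± 0.10 (limma adjusted p = 0.00306), only 0.16 above the median of all tested genes, and its call was lost after median-ratio scaling (0.18, adjusted p = 0.10). TCF7 shares annotated exon sequence with SKP1 on the opposite strand, a gene at 145.5 ± 6.67 TPM in LF3 libraries and 100.5 ± 6.11 TPM in CON libraries. The ratios of means were alike, 1.40 for TCF7 and 1.45 for SKP1; whether reads of SKP1 were counted for TCF7 was not tested. LEF1 stood at 0.770, 1.23 and 0.640 TPM in LF3 libraries and at 1.53, 1.60 and 1.63 TPM in CON libraries. LF3 replicate 2 was the highest of its group and still below each CON library. The log2 fold change of LEF1 was -0.47 ± 0.13 (limma adjusted p = 0.00500), -0.72 relative to the median of all tested genes, -0.62 after median-ratio scaling and -0.25, not called, after quantile normalization (adjusted p = 0.0710); the antisense RNA LEF1-AS1 overlaps its exons.

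Across the whole TCF and LEF family the summed level was 15.0 to 16.7 TPM in LF3 libraries and 15.45 to 17.54 TPM in CON libraries, ranges that overlap, and its makeup differed. TCF7L2, which encodes TCF4, made up 44.9 ± 1.87% of the family in LF3 libraries and 33.9 ± 1.42% in CON libraries, and TCF7 34.8 ± 1.31% in LF3 libraries and 24.3 ± 3.65% in CON libraries (SD, n = 3 each). TCF7L1, known mostly as a repressor of Wnt target genes, made up 14.7 ± 1.17% in LF3 libraries and 32 ± 2.82% in CON libraries, and LEF1 5.55 ± 1.94% in LF3 libraries and 9.80 ± 0.534% in CON libraries. TCF7L1 was called lower, with a log2 fold change of -0.89 ± 0.11 (limma adjusted p = 1.17e-05). TCF7L2 had 0.32 ± 0.084 (limma adjusted p = 0.00426), a call lost after both scalings (adjusted p = 0.356 and 0.0673). The ratio of TCF7 to LEF1 was 7.78, 4.28 and 8.23 in LF3 libraries and 2.18, 2.74 and 2.51 in CON libraries, so TCF7 exceeded LEF1 in every library and by more in each LF3 library (mean log2 ratio higher by 1.40; exact permutation test, two-sided, p = 0.1, the smallest possible).

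**Figure D3:**
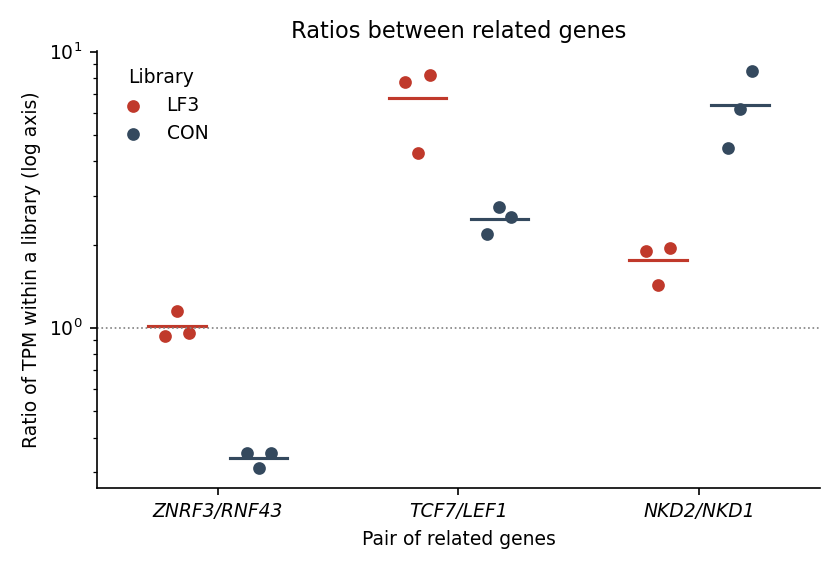
Ratio of TPM between related genes within each library on a log axis; each point is 1 library, the short bar is the mean of 3, and the dotted line marks equal levels. The ZNRF3 to RNF43 ratio lies at 0.929 to 1.15 in LF3 libraries and 0.310 to 0.351 in CON libraries. The groups do not overlap in any of the 3 ratios, which were chosen after the values of the genes were seen.

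BMP4, a growth factor of the TGF-beta superfamily that beta-catenin can induce in some carcinoma cells, was higher in LF3 libraries. It stood at 5.07, 5.05 and 4.93 TPM in LF3 libraries and at 2.71, 2.60 and 3.08 TPM in CON libraries. The LF3 libraries lay close together and all above the CON libraries, with a ratio of means of 1.79. The log2 fold change was 0.67 ± 0.085 (limma adjusted p = 2.32e-05), 0.42 above the median of all tested genes, and stayed called after median-ratio scaling (0.45) and quantile normalization (0.66). Of 13 other tested genes of BMP signalling, 6 were called higher and 7 lower, beside 53.2% and 32.3% of all tested genes. Median-ratio scaling gave 5 and 7, beside 42.6% and 42.7% of all genes, and quantile normalization 5 and 6, beside 43.9% and 41.4%. The median log2 fold change of these 13 genes was -0.35, beside 0.24 for all tested genes. SMAD1, which carries the signal to the nucleus, had 10.5 ± 0.545 TPM in LF3 libraries and 3.09 ± 0.361 TPM in CON libraries (log2 fold change 1.49 ± 0.088, limma adjusted p = 3.15e-08). The target gene ID3 had 53.5 ± 5.88 TPM in LF3 libraries and 21.1 ± 1.78 TPM in CON libraries (1.30 ± 0.084, limma adjusted p = 7.32e-08), while its relative ID2 had 1.09 ± 0.161 TPM in LF3 libraries and 5.97 ± 0.261 TPM in CON libraries (-1.74 ± 0.094, limma adjusted p = 1.57e-08). FST, which binds and blocks activins and some BMPs, had 11.4 ± 0.436 TPM in LF3 libraries and 3.45 ± 0.226 TPM in CON libraries, a log2 fold change of 1.48 ± 0.076 (limma adjusted p = 1.07e-08).

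The order of levels within the set also differed between groups. In LF3 libraries DKK1 was followed by ZNRF3, RNF43 and TCF7, whose ranges overlapped between neighbours. BMP4 came next, apart from TCF7 but with its range inside that of RNF43. Then came NKD2, LEF1, SP5 and NKD1, whose ranges overlapped between neighbours, with AXIN2 lowest. In CON libraries DKK1 was followed by RNF43, then by NKD2 and TCF7 with overlapping ranges, then by BMP4, ZNRF3 and LEF1, each apart from the next, and then by SP5 and NKD1 with overlapping ranges, again with AXIN2 lowest. ZNRF3 thus stood above BMP4 in LF3 libraries and below it in CON libraries, and NKD2 below BMP4 in LF3 libraries and above it in CON libraries.

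**Figure D4:**
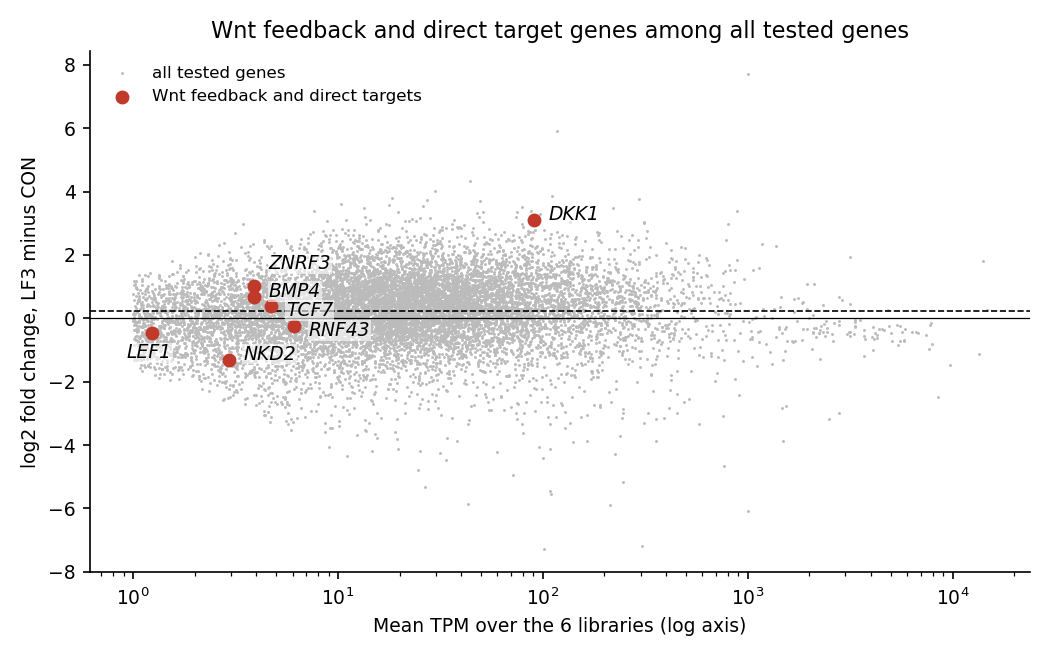
Log2 fold change, LF3 minus CON, against the mean TPM over the 6 libraries (log axis) for the 12195 tested genes in grey, with the 7 tested Wnt feedback and direct target genes in red; the dashed line is the median of all tested genes. DKK1 at 3.09 lies near the upper edge of the cloud, and the other 6 lie between -1.30 and 1.02.

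Other genes known as Wnt targets showed the same lack of a common direction. Of 17 tested among 23 listed, 7 were called higher and 9 lower, beside 53.2% and 32.3% of all tested genes. Median-ratio scaling gave 6 and 9, beside 42.6% and 42.7% of all genes, and quantile normalization 7 and 9, beside 43.9% and 41.4%. The median log2 fold change of these 17 genes was -0.57, beside 0.24 for all tested genes. The 4 with the smallest p were lower: JUN, a subunit of AP-1, had 61.3 ± 2.68 TPM in LF3 libraries and 226 ± 6.89 TPM in CON libraries. CD44, a surface receptor for hyaluronan, had a log2 fold change of -1.23 (limma adjusted p = 3.76e-11), and PLAUR, the urokinase receptor, had 67.8 ± 2.48 TPM in LF3 libraries and 194 ± 1.41 TPM in CON libraries. ETS2, a transcription factor, had 62.9 ± 0.334 TPM in LF3 libraries and 134.5 ± 1.09 TPM in CON libraries. JUN, PLAUR and ETS2 are known to respond to several pathways besides Wnt, and genes of this list called higher may do so too. Among those called higher were CCND1, which encodes cyclin D1, at 174 ± 7.16 TPM in LF3 libraries and 71.7 ± 1.92 TPM in CON libraries (1.27 ± 0.043, limma adjusted p = 3.94e-10), and MYC, a growth-promoting transcription factor, at 64.3 ± 3.65 TPM in LF3 libraries and 27.1 ± 0.760 TPM in CON libraries (1.21 ± 0.054, limma adjusted p = 2.98e-09). Both stayed called after both scalings. EPHB2, MMP7, FOSL1, ENC1 and CLDN1 were the other 5 called higher. NOTUM, a secreted Wnt-inactivating enzyme, was at 0.05 ± 0.05 TPM in LF3 libraries and 0.263 ± 0.0551 TPM in CON libraries, below the filter; the fit with no filter called it lower (limma adjusted p = 0.00239). Of genes for the destruction complex and the nuclear partners of beta-catenin, 12 of 26 tested were called higher and 7 lower as deposited. The shares of all tested genes were 53.2% and 32.3%. Median-ratio scaling gave 8 and 13, beside 42.6% and 42.7% of all genes, and quantile normalization 7 and 14, beside 43.9% and 41.4%. The more frequent direction of call in this list thus turned with the scaling, while the shares of all genes also shifted from higher toward lower. APC, the scaffold that AXIN2 works beside, had 10.5 ± 0.926 TPM in LF3 libraries and 4.2 ± 0.257 TPM in CON libraries (1.14 ± 0.085, limma adjusted p = 2.26e-07). CSNK1E, a casein kinase, had 71.4 ± 1.96 TPM in LF3 libraries and 153 ± 6.58 TPM in CON libraries (-1.09 ± 0.044, limma adjusted p = 1.37e-09). PYGO2 and BCL9L, which join beta-catenin to chromatin, had log2 fold changes of 0.86 ± 0.054 and 0.69 ± 0.056 (limma adjusted p = 5.51e-08 and 4.78e-07).

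**Figure D5:**
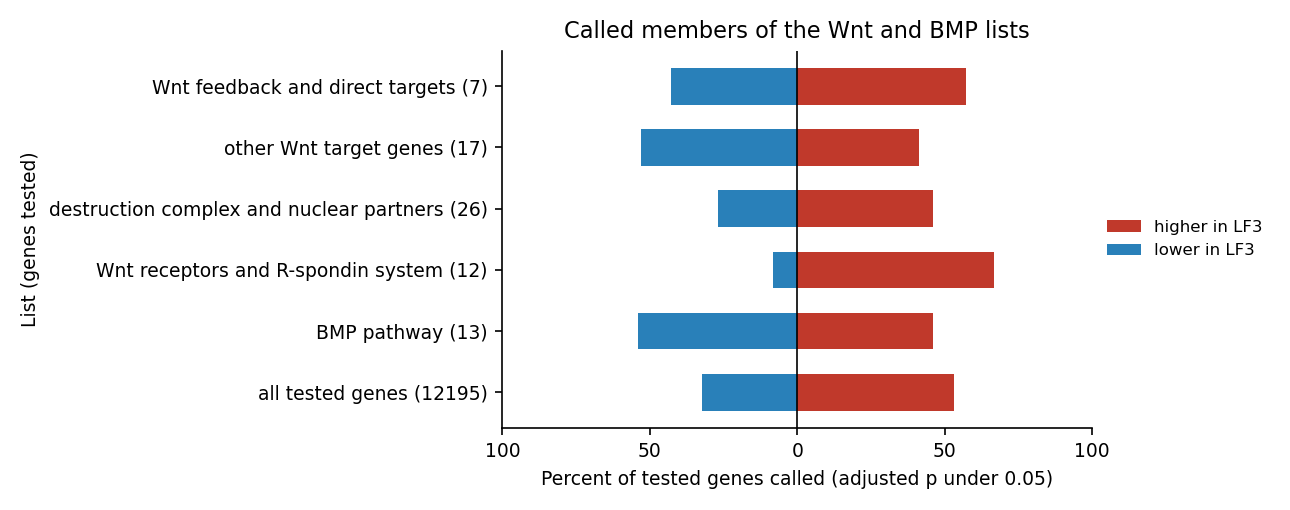
Percent of tested genes called higher (right) and lower (left) in LF3 libraries for the Wnt feedback and direct target genes, 3 other Wnt lists and the BMP list, with the number tested in brackets and all tested genes at the bottom (53.2% higher, 32.3% lower). The other Wnt targets show 7 higher and 9 lower of 17, and the receptor list 8 higher and 1 lower of 12.

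Epithelial markers were present in both groups, though not each squamous one. CDH1, the epithelial cadherin, averaged 148 TPM in LF3 libraries and 135 TPM in CON libraries. KRT5, a basal keratin, had 454 ± 6.66 TPM in LF3 libraries and 102 ± 3.43 TPM in CON libraries, whereas its usual partner KRT14 averaged 0.447 ± 0.143 TPM in LF3 libraries and 0.777 ± 0.0757 TPM in CON libraries. KRT17, a keratin of stressed and basal epithelium, had 58.8 ± 0.706 TPM in LF3 libraries and 200.01 ± 8.66 TPM in CON libraries (log2 fold change -1.75, limma adjusted p = 3.34e-11). ITGB4, an integrin of hemidesmosomes, had 98.3 ± 2.34 TPM in LF3 libraries and 175 ± 9.64 TPM in CON libraries (-0.82, limma adjusted p = 1.96e-08). Of 7 tested squamous markers, 4 were called higher and 3 lower, beside 53.2% and 32.3% of all tested genes. Median-ratio scaling gave 2 and 4, beside 42.6% and 42.7% of all genes, and quantile normalization 1 and 5, beside 43.9% and 41.4%. LEF1 and TCF7 are also T cell genes. CD3D, a subunit of the T cell receptor complex, was at 0 in all LF3 libraries and at 0.72, 0.25 and 0.24 TPM in CON libraries. The fit with no filter called it lower (limma adjusted p = 0.0109). That fit called 53.6% of genes with a mean of 0.1 to 1 TPM. LEF1 was also lower in LF3 libraries, whereas TCF7 was higher. The pan-leukocyte marker PTPRC was at 0 in all LF3 libraries and averaged 0.0133 TPM in CON libraries. CD3E averaged 0.09 TPM in LF3 libraries and 0.0633 TPM in CON libraries, and CD8A 0.207 TPM in LF3 libraries and 0.267 TPM in CON libraries, both with overlapping values. The 5 leukocyte markers in the table summed to 45.3 to 49.3 TPM in LF3 libraries and 327 to 341 TPM in CON libraries, nearly all of it CD68 (47.4 ± 2.25 TPM in LF3 libraries, 334 ± 6.49 TPM in CON libraries), a lysosomal gene that epithelial cells also express. The 7 fibroblast markers summed to 6.85 to 7.69 TPM in LF3 libraries and 14.8 to 15.8 TPM in CON libraries. Most of this was COL1A1, at 4.31 ± 0.211 TPM in LF3 libraries and 9.27 ± 0.700 TPM in CON libraries. DCN, COL3A1 and PDGFRA were at or near 0 in both groups, with overlapping values. The 4 endothelial markers summed to 6.24 to 7.26 TPM in LF3 libraries and 0.410 to 0.570 TPM in CON libraries. CDH5 alone stood at 6.19 ± 0.654 TPM in LF3 libraries and 0.110 TPM in each CON library. KDR was at 0 in all LF3 libraries and averaged 0.0267 TPM in CON libraries. The part of these markers in the results was not tested. In RNA of whole cultures, fewer cells that express a gene and less RNA per cell cannot be told apart.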

How the data were processed

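RNA of 6 CAL-27 sphere libraries, 3 titled LF3 and 3 titled CON, was read as single-end reads on a BGISEQ500 instrument, per the labels' protocols. The deposited values are TPM per gene, to 2 decimals. HISAT and Bowtie2 appear in the submitters' processing notes beside GRCm38.p6, a mouse build, while identifiers are human, so what the reads were aligned to is not settled. The sources used here give no depth, strand setting or rule for shared reads. TPM divides by a library total, so abundant genes move all others. Tests used limma 3.58.1 in R 4.3.3 on log2(TPM + 1) with a mean-variance trend, two-sided, Benjamini-Hochberg over the 12195 of 17280 genes averaging 1 TPM or more, without a replicate block. Named genes are all 10 Wnt feedback and direct target genes and up to 4 called genes per list with the smallest p; not all of these are printed, and others printed were chosen after their values were seen. The 10 genes and the 9 lists were chosen with earlier results of these data known. Exact permutation tests used scipy 1.17.1, and figures matplotlib 3.10.9 in Python 3.11.15. Promoters come from RefSeq (GRCh38.p14) and overlaps of genes from GENCODE 29. The limma procedure was checked on simulated data with few genes changed and independent noise. That check does not cover libraries in which most genes differ, nor technical replicates. Alternatives were pseudocounts of 0.1 and 0.5, filters of 0, 0.1 and 5 TPM, median-ratio scaling, quantile normalization, no trend, robust variances, array weights, the replicate block and each library left out.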

Additional observations from a re-analysis of the deposited data

How the results depend on the processing

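DKK1, ZNRF3, BMP4 and NKD2 kept direction and call under each alternative that could fit them; a filter of 5 TPM keeps only DKK1 and RNF43, giving 1 called higher and 1 lower. RNF43 lost its call in 6 settings: no filter (adjusted p = 0.0654), no filter with a pseudocount of 0.1 (adjusted p = 0.0629) and 4 of the 6 fits without a library, whose log2 fold changes ran from -0.28 to -0.14 over all 6. TCF7 lost its call after median-ratio scaling over the tested genes (0.18) and kept it when that scaling used all genes, an alternative added after seeing the data. LEF1 lost its call under quantile normalization (-0.25). CTNNB1 had 0.24 as deposited and turned to -0.030 and -0.067, not called, after median-ratio scaling and quantile normalization, and LRP6 to -0.21 and -0.25. With the replicate block 6536 genes were called higher and 3986 lower, against 6489 and 3938 without it, and no call of the 7 tested genes changed. Same-numbered LF3 and CON libraries had weakly correlated deviations, at 0.048 to 0.16, but 5 of 6 libraries correlated best with their own number. Whether the numbers mark pairs was not tested, and the main fit left them unpaired. Differences in AXIN2, NKD1 and SP5 within their intervals were not detectable; TPM keeps no depth, and its part was not tested. Why a setting changed a call was not tested.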

Other observations

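Genes with the profile closest to a Wnt feedback gene were found by the Euclidean distance between centred log2(TPM + 1) values over the 6 libraries, for the 3 genes of the set whose log2 fold change was 1 or more in size, and are given as a description. Nearest to DKK1 were COA7 (distance 0.0624), RRP15 (0.127) and MRTO4 (0.186). COA7, an assembly factor of cytochrome c oxidase, had 26.5 ± 1.46 TPM in LF3 libraries and 2.22 ± 0.269 TPM in CON libraries. RRP15 had 42.1 ± 0.664 TPM in LF3 libraries and 3.88 ± 0.563 TPM in CON libraries, and MRTO4 had 91.3 ± 4.15 TPM in LF3 libraries and 10.3 ± 0.825 TPM in CON libraries; both act in the making of ribosomes. Nearest to ZNRF3 were APOL3 (0.0479), CENPO (0.0560) and ANKRD52 (0.0563). Nearest to NKD2 was SEPTIN5 (0.216), at 2.64 ± 0.249 TPM in LF3 libraries and 8.09 ± 1.37 TPM in CON libraries, followed by the uncharacterised LOC102724197 and LOC112267876. With groups this far apart, many genes have like profiles, so nearness says little beyond a like difference between the groups.

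LGR6, a receptor for R-spondins, lay below the filter; it stood at 0.0433 ± 0.0153 TPM in LF3 libraries and 1.0 ± 0.06 TPM in CON libraries. CHRD, which encodes the BMP antagonist chordin, likewise stood at 0.113 ± 0.0569 TPM in LF3 libraries and 1.39 ± 0.0755 TPM in CON libraries. The fit with no filter called 53.6% of genes with a mean of 0.1 to 1 TPM. It called both LGR6 and CHRD lower (limma adjusted p = 1.06e-06 and 1.93e-06). Both were picked after their values were seen.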
